A study of Mus musculus with 24 samples.

Results

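The comparison described here set the whole light phase against the whole dark phase in the ventral tegmental area (VTA) of the mouse, over every gene-annotated transcript of a microarray. The light phase was the 12 arrays labelled ZT0, ZT4 or ZT8 and the dark phase the 12 arrays labelled ZT12, ZT16 or ZT20, so that all 24 arrays of the series entered. ZT is Zeitgeber time, the hours since lights on in a cycle of 12 h light and 12 h dark. All mice were wild-type C57BL/6N males aged 10 to 12 weeks, kept at 21 °C and 50% humidity with standard chow and water always at hand, and none received a treatment. Each time point was represented by 4 mice with 1 array each (Affymetrix Mouse Gene 1.0 ST). The labels place the time points 4 h apart and the study's methods give another interval, so the times follow the labels. The ZT0 mice stand at lights on and the ZT12 mice at lights off, the first time point of each phase. The platform annotation names a gene for 23410 of 35556 probe sets, and these are called transcripts below. The 6 time points were groups of 4 arrays in 1 limma fit, and the contrast was the mean of the 3 light time points minus the mean of the 3 dark ones, with equal weights. Differences are light minus dark on the log2 scale, so that a negative value means a lower level in the light phase. A transcript is called where its p, Benjamini-Hochberg adjusted over all transcripts, was under 0.05.

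Mice are nocturnal: they rest and fast for most of the light phase and are active and feed for most of the dark phase. Their adrenal corticosterone climbs towards lights off, and its receptor in neurons and glia switches on a known set of genes. The circadian clock is a loop in which BMAL1 (Arntl) and CLOCK activate their own repressors, the Per, Cry and Nr1d genes, through DNA motifs called E-boxes. The VTA holds the dopamine neurons of the reward system together with GABA and glutamate neurons and glia, all of which a tissue punch takes along. In such a punch, fewer cells of a type and less RNA per cell cannot be told apart.

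Array medians lay between 6.71 and 6.79, and pairwise correlations across transcripts between 0.962 and 0.995. ZT0 replicate 4 stood apart with the lowest median correlation to the other arrays, 0.970, and 327 transcripts lay more than 1 log2 unit below and 60 more than 1 unit above the other ZT0 arrays. No other array had more than 17 such transcripts. Of 20 dopamine neuron markers 19 had a probe set. The arrays carry no detection call and no other tissue, so the punched tissue could not be checked against them.

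Differences between the phases were small. The median over all transcripts was -0.003 log2 units, and 0.449% of transcripts differed by more than 0.25 log2 units (1.19-fold), 42 of them higher and 63 lower in the light phase. Beyond 0.50 log2 units lay 2 transcripts. Fabp7 was one, and Trdn, triadin of the calcium release complex of muscle, was the other, at 4.32 in the light phase and 5.03 in the dark phase (difference -0.71, SE 0.19, limma adjusted p = 0.161). Trdn is named here after its value was seen, and it was not called. In all, 6 of 23410 transcripts (0.0256%) were called, 5 lower in the light phase (0.0214%) and 1 higher (0.00427%). At an unadjusted p under 0.05 there were 2653 transcripts (11.3%), 1378 lower (5.89%) and 1275 higher (5.45%) in the light phase. With an adjusted p under 0.1 there were 28 (0.12%), 23 of them lower in the light phase (0.0982%). The median standard error of a difference was 0.05 log2 units, so with 4 mice per time point most differences of the size seen here could not be told from the spread between mice.

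Promoter sequences are given first for 4 genes on which the description turns. Sgk1 is the transcript with the smallest p, Cry1 the clock repressor with the smallest p, Per3 the next clock repressor, and Th the marker of the dopamine neurons that the tissue was punched for. The sequences are RefSeq's (GRCm38.p6), the 250 bases before the annotated gene start, 5′ to 3′ on the gene's strand. Capitals mark an E-box (CACGTG), a glucocorticoid response element (GRE: AGAACA, any 3 bases, TGTTCT), a D-box (TTATG followed by TAA or CAA) or a cAMP response element (CRE, TGACGTCA), searched on both strands. Sgk1 has 6 annotated starts, and the one shown is the one that holds motifs.
Sgk1 (chr10:21993640-21993889, plus strand): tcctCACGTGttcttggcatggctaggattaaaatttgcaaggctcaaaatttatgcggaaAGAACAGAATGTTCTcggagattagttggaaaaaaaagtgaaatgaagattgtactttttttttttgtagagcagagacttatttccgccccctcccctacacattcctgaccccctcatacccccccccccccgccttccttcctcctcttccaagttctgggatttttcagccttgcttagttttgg
Cry1 (chr10:85185055-85185304, minus strand): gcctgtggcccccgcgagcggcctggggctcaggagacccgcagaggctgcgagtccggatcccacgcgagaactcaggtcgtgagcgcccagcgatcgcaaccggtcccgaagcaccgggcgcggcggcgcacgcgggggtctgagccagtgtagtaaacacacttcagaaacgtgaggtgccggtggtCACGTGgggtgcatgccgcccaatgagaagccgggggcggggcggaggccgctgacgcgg
Per3 (chr4:151044666-151044915, minus strand): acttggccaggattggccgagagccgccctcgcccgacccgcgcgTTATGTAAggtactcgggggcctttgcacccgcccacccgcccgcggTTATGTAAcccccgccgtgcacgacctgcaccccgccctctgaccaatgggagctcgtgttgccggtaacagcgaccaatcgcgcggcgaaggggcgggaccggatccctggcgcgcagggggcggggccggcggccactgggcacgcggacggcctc
Th (chr7:142899996-142900245, minus strand): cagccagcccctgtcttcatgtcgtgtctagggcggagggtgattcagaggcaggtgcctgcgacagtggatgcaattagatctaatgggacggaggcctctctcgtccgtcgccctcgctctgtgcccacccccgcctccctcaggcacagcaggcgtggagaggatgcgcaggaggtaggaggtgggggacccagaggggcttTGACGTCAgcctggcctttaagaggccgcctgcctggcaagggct
The GRE of Sgk1 begins 189 bases before that start and its E-box 246 bases before it. Over all 32851 promoter windows of this length, 3 held the GRE (0.00913%), 1978 an E-box (6.02%), 493 a D-box (1.5%), 508 a CRE (1.55%) and 153 a heat shock element (GAA, any 2 bases, TTC, any 2 bases, GAA; 0.466%). The 5 called genes with a window in the table have 11 windows, and the one of Sgk1 shown above was the only one to hold any of these motifs. Zbtb16 has no window in the table. A match describes the letters only.

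Sgk1, the serum- and glucocorticoid-regulated kinase, had the smallest p. Its light phase arrays lay at 6.61, 6.79 and 7.04 (lowest, median, highest of 12) and its dark phase arrays at 6.86, 7.34 and 7.65. The ranges overlapped, with 7 light phase arrays below every dark phase array and 10 dark phase arrays above every light phase array. Sgk1 averaged 6.83 ± 0.15 in the light phase and 7.33 ± 0.25 in the dark phase (SD, n = 12 each), 1.41-fold lower in the light phase (difference -0.50, SE 0.06, limma adjusted p = 0.000754). Its time-point means ran 6.80, 6.74 and 6.95 at ZT0, ZT4 and ZT8, then 7.56, 7.18 and 7.25 at ZT12, ZT16 and ZT20. The highest mean was that of ZT12, at lights off.

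How much a time point carries was expressed as the distance of its mean from the mean of the 6 time points, signed and scaled so that the 6 parts sum to the whole difference, and an even spread would give each time point 16.7%. For Sgk1 the parts were 18.7, 22.9 and 8.42% for ZT0, ZT4 and ZT8, and 32.2, 6.56 and 11.3% for ZT12, ZT16 and ZT20. Set against the time point 12 h later, ZT0 differed by -0.76, ZT4 by -0.44 and ZT8 by -0.29 (SE 0.11 each). The call of Sgk1 held without any single array, at adjusted p between 1.66e-05 and 0.00291. It was lost without ZT4 (difference -0.45, adjusted p = 0.0602) and without ZT12 (difference -0.38, adjusted p = 0.0958), fits on 20 arrays.

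Etnppl encodes ethanolamine-phosphate phospho-lyase, which breaks down phosphoethanolamine and in brain is found mainly in astrocytes. Its light phase arrays lay at 7.80, 8.07 and 8.29 and its dark phase arrays at 8.17, 8.48 and 8.75 (lowest, median, highest), with 10 of 12 light phase arrays below every dark phase array. It was 1.31-fold lower in the light phase (difference -0.39, SE 0.06, adjusted p = 0.0084). The 3 pairs of times 12 h apart differed by nearly the same amount, -0.38, -0.37 and -0.42 (SE 0.10 each), and 85.1% of the sum of squares between time points lay between the phases. ZT4 and ZT12 carried most, 24.6 and 24.1%, and ZT16 least, 6.97%.

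Adipor2, a receptor of the adipocyte hormone adiponectin, had light phase arrays at 6.91, 7.25 and 7.47 and dark phase arrays at 7.42, 7.55 and 8.11. Of the 12 light phase arrays, 11 lay below every dark phase array. It was 1.31-fold lower in the light phase (difference -0.39, SE 0.06, adjusted p = 0.0197). ZT4, its lowest mean (7.07), carried 28.2% and ZT12, its highest (7.73), 28.6%, whereas the other time points carried between 9.88 and 11.9% each. Adipor2 remained called without any single array (adjusted p 0.00986 to 0.0482).

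Zbtb16, a zinc finger transcription repressor that glucocorticoids induce, differed least of the called transcripts, at 1.18-fold lower in the light phase (difference -0.24, SE 0.04, adjusted p = 0.0224). Its light phase arrays lay at 7.04, 7.34 and 7.46 and its dark phase arrays at 7.36, 7.55 and 7.66. Within the light phase its means were 7.30, 7.21 and 7.42, and ZT8 carried only 0.875% of the difference, against 30.5% for ZT4 and 25.4% for ZT12. Without 1 array its adjusted p ranged between 0.00515 and 0.0694. The call was lost without any one of ZT0 replicate 3, ZT4 replicate 1, ZT8 replicates 1 and 2, ZT12 replicates 1 and 4, ZT16 replicates 3 and 4, and ZT20 replicate 1.

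Plekhf1 encodes phafin 1, an endosome and lysosome protein that binds membrane phosphoinositides. Light phase arrays lay at 6.60, 6.99 and 7.16 and dark phase arrays at 7.06, 7.28 and 7.57, and 10 of the 12 light phase arrays were below every dark phase array. It was 1.25-fold lower in the light phase (difference -0.33, SE 0.06, adjusted p = 0.0299). ZT8 (25.5%) and ZT12 (25.1%) carried the most and ZT4 the least (5.25%), the reverse of the order of ZT4 and ZT8 in Zbtb16. Without 1 array its adjusted p ranged between 0.0187 and 0.0812, and the call was lost without any one of ZT0 replicate 3, ZT4 replicates 1, 2 and 3, ZT8 replicates 3 and 4, ZT12 replicates 1, 2 and 4, ZT16 replicates 3 and 4, and ZT20 replicates 2 and 3.

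Fabp7, the fatty acid-binding protein of astrocytes and radial glia, was the one transcript called higher in the light phase. Its light phase arrays lay at 7.64, 8.72 and 8.99 and its dark phase arrays at 7.30, 7.95 and 8.41. All but 1 of the light phase arrays were above every dark phase array, and the exception was ZT0 replicate 4, the array that stood apart, at 7.64. Fabp7 was 1.57-fold higher in the light phase (difference 0.65, SE 0.11, adjusted p = 0.0224), and without ZT0 replicate 4 the difference was 0.75 with an adjusted p of 1.37e-06. ZT16 (30.7%) carried the most, followed by ZT4, and ZT12 the least (3.78%), so that the pair ZT4 and ZT16 differed by 1.10 log2 units against 0.31 for ZT0 and ZT12 and 0.53 for ZT8 and ZT20 (SE 0.19 each). The call was lost without ZT0 replicate 3 (adjusted p = 0.0538), ZT8 replicate 2 (0.0512) or ZT12 replicate 4 (0.0529). It was also lost with robust and trended variances (adjusted p = 0.0632), without variance moderation (0.124), over all probe sets (0.104) and in a plain t-test of equal variances (0.0975). Its relatives were not called. Fabp3, of muscle and neurons, differed by 0.13 (SE 0.05, adjusted p = 0.292), and Fabp5, of epidermis and brain, by 0.14 (SE 0.06, adjusted p = 0.365). The second probe set of Fabp3 differed by 0.16 (adjusted p = 0.307) and that of Fabp5 by 0.18 (adjusted p = 0.223).

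**Figure D1:**
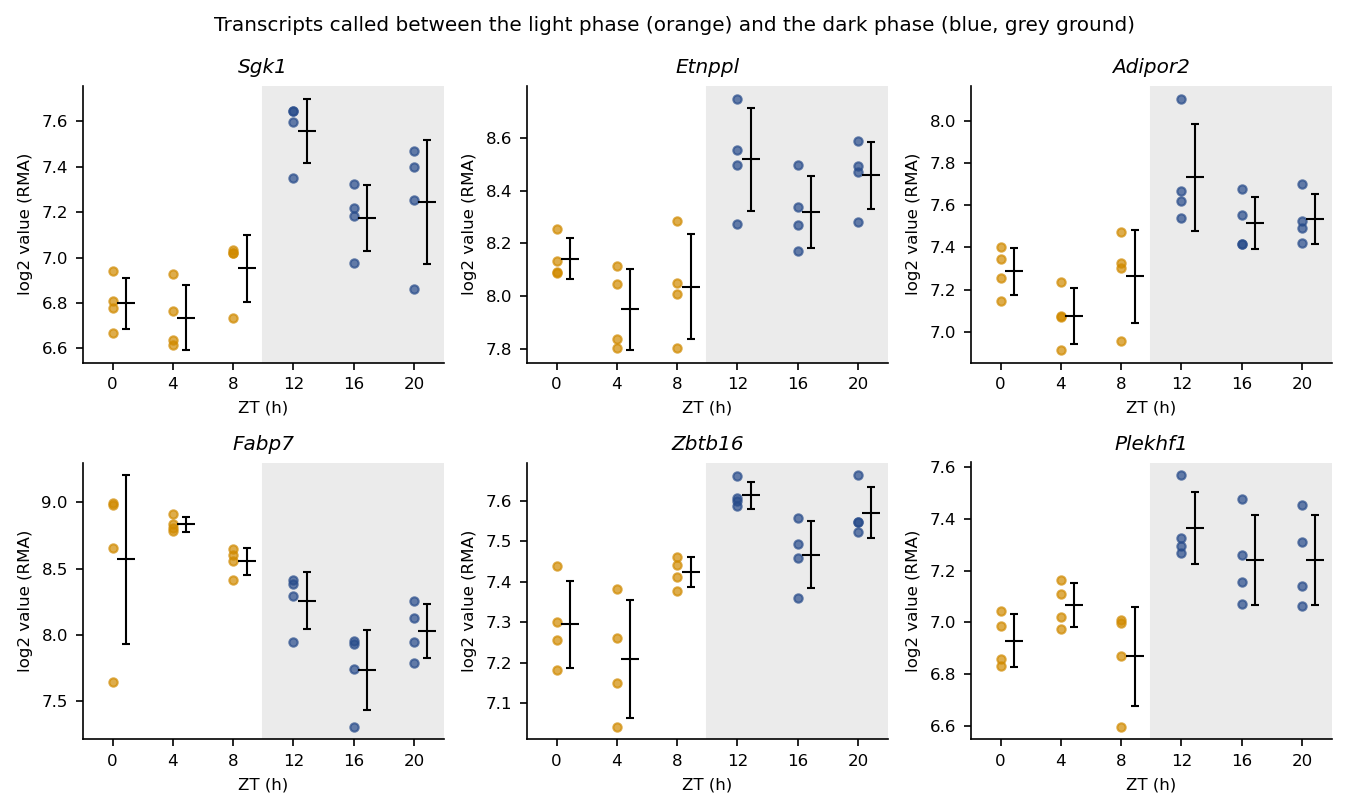
Log2 RMA values (vertical axes) of the 6 called transcripts in each of the 24 arrays by ZT in hours (horizontal axes), light phase orange and dark phase blue on grey, with the mean and SD of the 4 arrays beside each time point. Fabp7 was higher in the light phase apart from 1 ZT0 array at 7.64, and the other 5 were lower.

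All 6 called transcripts had their 3 light phase means on one side of their 3 dark phase means. That order by itself was common: 2235 transcripts (9.55%) had all light means below all dark means and 2121 (9.06%) the opposite. All 12 light phase arrays lay below all 12 dark phase arrays for a single transcript (0.00427%), Tti1, a subunit of the complex that stabilizes mTOR and related kinases, and for none did they lie above. Tti1, named after its values were seen, had light phase arrays at 6.28, 6.47 and 6.53 and dark phase arrays at 6.53, 6.63 and 6.72, with the highest light and the lowest dark array nearly equal. Its difference was -0.20 (SE 0.04, adjusted p = 0.0729) and it was not called. Each time point carried between 14.1 and 19.5% of it.

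Some other transcripts that missed the threshold were also nearly flat within the phases. Eml1, a microtubule-associated protein, had means of 8.29, 8.32 and 8.27 through the light phase and 8.06, 8.06 and 8.07 through the dark phase (difference 0.23, SE 0.05, adjusted p = 0.126). Its light phase arrays lay at 8.11, 8.25 and 8.50 and its dark phase arrays at 7.88, 8.06 and 8.21. The phases held 98.4% of its sum of squares between time points, and 98.6% of that of the membrane protein Tmem151a (difference 0.17, SE 0.04, adjusted p = 0.133). Over all transcripts the median was 20.3%. Car2, the carbonic anhydrase of oligodendrocytes (94.0%), Phyhd1 (90.8%) and Prdx2, a peroxiredoxin (89.6%), were less even, with parts between 8.67 and 25.0%. They differed by 0.21, 0.17 and 0.25 at adjusted p between 0.133 and 0.135. After a further quantile normalization Car2 differed by 0.13 (adjusted p = 0.258) and Prdx2 by 0.13 (adjusted p = 0.306).

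Other transcripts of high level with small p were uneven. Id2, an inhibitor of helix-loop-helix transcription factors, had light phase arrays at 7.82, 8.21 and 8.59 and dark phase arrays at 7.63, 7.98 and 8.23 (difference 0.29, SE 0.06, adjusted p = 0.0729). ZT4, where it averaged 8.46, carried 43.3% of the difference and ZT8 -0.109%. After a further quantile normalization Id2 differed by 0.28 and passed the threshold (adjusted p = 0.0283). Slc7a5, the large neutral amino acid transporter that also carries L-DOPA, had light phase arrays at 7.73, 7.98 and 8.31 and dark phase arrays at 8.0, 8.21 and 8.39 (difference -0.21, SE 0.05, adjusted p = 0.0945). ZT8 and ZT20 ran against its difference, with parts of -9.93 and -3.71%, and the phases held 48.4% of its sum of squares between time points. Neither was called in the deposited values.

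The rest of the transcripts with small p and a level above the median were also not called, with adjusted p between 0.0729 and 0.135. Below 0 were Polr3e, a subunit of RNA polymerase III (-0.25), Zfyve21 (-0.24), Itpk1, an inositol phosphate kinase (-0.22), Maml2, a coactivator of Notch (-0.19, and -0.05 in its other probe set), and the chromatin protein Pwwp2a (-0.19). Above 0 were Rpl5, a protein of the large ribosomal subunit (0.31), Rpl9 of the same subunit (0.19), Myo18b (0.36), A630089N07Rik (0.32) and Hk1, the hexokinase of brain (0.41). After a further quantile normalization Rpl5 differed by 0.32 and passed the threshold (adjusted p = 0.0337). The brightest probe sets of Rpl5 and Rpl9 both differed by 0.15 (adjusted p = 0.23 and 0.204). The Hk1 value comes from a probe set annotated by 1 mRNA record, and the other Hk1 probe set differed by -0.03, so the gene is uncertain. Myo18b has many probe sets, and the others differed by between -0.07 and 0.12.

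**Figure D2:**
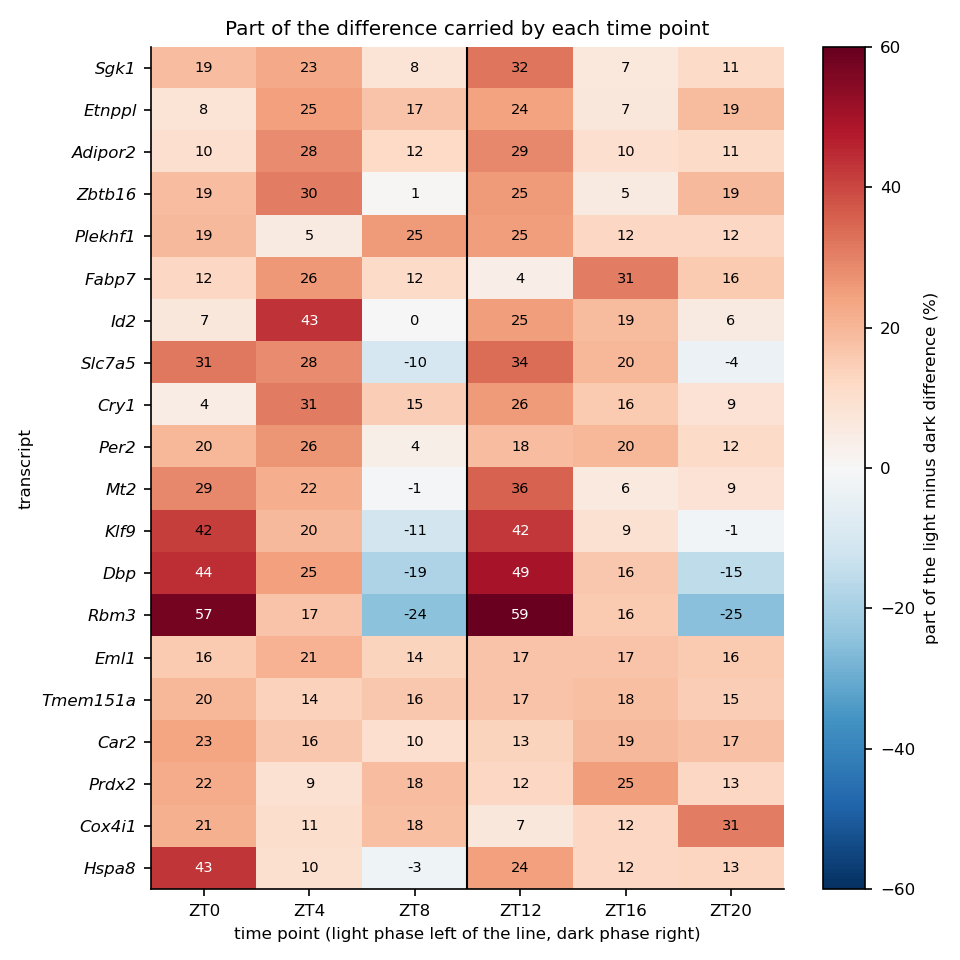
Part of the light minus dark difference carried by each time point, in percent of the difference (numbers and colour), for 20 transcripts (rows) at the 6 time points (columns, light phase left of the line, dark phase right). Eml1 and Tmem151a are even across the row, while Rbm3 and Dbp have negative parts at ZT8 and ZT20.

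Across the 1378 transcripts lower in the light phase at an unadjusted p under 0.05, ZT0 carried a median of 22.5%, ZT4 16.7%, ZT8 10.4%, ZT12 14.1%, ZT16 17.5% and ZT20 17.6%. Across the 1275 higher ones the medians were 24.1, 16.2, 10.1, 12.9, 18.1 and 18.9% in the same order of times. ZT0 was the largest part of 380 of the lower transcripts (27.6%) and 447 of the higher ones (35.1%), and ZT8 of 83 (6.02%) and 75 (5.88%). With ZT0 replicate 4 left out, ZT0 was the largest part in 35.4% of 1610 lower and 38.7% of 1471 higher transcripts. The late light, ZT8, ran against the phase difference in 256 of the lower and 286 of the higher transcripts, more often than any other time point. These sets were chosen by the same contrast, so the shares describe it and are not tested.

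The number of calls depended on the time points kept. There were 5 calls without ZT0, none without ZT4, 7 without ZT8, none without ZT12, 4 without ZT16 and 2 without ZT20, always in limma at an adjusted p under 0.05. The fits without ZT4 and ZT12 still had 2041 and 2520 transcripts at an unadjusted p under 0.05. These fits rest on 20 arrays and weigh a phase of 2 time points against one of 3. Without 1 array the count ran between 3 and 40. The highest count, 40, came from dropping ZT0 replicate 2, and dropping ZT0 replicate 4 gave 10. The lowest, 3, came from dropping either ZT0 replicate 3 or ZT12 replicate 4.

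Whether a phase mean stands for like values was tested in the same fit. Differences among the 3 time points within the phases were called for 0 of 23410 transcripts by limma's F-test, with 672 (2.87%) at an unadjusted p under 0.05. Whether the 3 pairs of times 12 h apart, ZT0 and ZT12, ZT4 and ZT16, ZT8 and ZT20, differed by unequal amounts was called for 2 transcripts (0.00854%), Nr1d1 and Cirbp, with 803 (3.43%) at an unadjusted p under 0.05. For these 2 the contrast of phases averaged differences of opposite sign. The shares of 2.87 and 3.43% lay below the 0.05 that this threshold passes when nothing differs. The absence of calls within the phases does not show that their time points were alike.

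Nr1d1 encodes the clock repressor REV-ERB alpha. It averaged 8.22, 8.44 and 8.70 at ZT0, ZT4 and ZT8 and 8.59, 8.35 and 8.19 at ZT12, ZT16 and ZT20. Light phase arrays lay at 8.14, 8.43 and 8.81 and dark phase arrays at 8.10, 8.36 and 8.69, nearly the same range. The pairs differed by -0.37, 0.09 and 0.51 (SE 0.08 each, adjusted p = 0.0086 for unequal pairs), while the phases differed by 0.08 (SE 0.05, adjusted p = 0.575) and held 4.18% of the sum of squares between time points. The call of unequal pairs held without any single array (adjusted p 0.00265 to 0.0426).

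Cirbp, the cold-inducible RNA-binding protein that follows body temperature, had the same course, with means of 7.0, 7.15 and 7.32 in the light phase and 7.34, 7.07 and 6.95 in the dark phase. Its pairs differed by -0.34, 0.08 and 0.37 (SE 0.07 each, adjusted p = 0.0122) and its phases by 0.04 (SE 0.04, adjusted p = 0.780). Cirbp lost the call of unequal pairs without ZT0 replicate 1 or 2 or ZT12 replicate 2 or 4 (adjusted p up to 0.0570). Rbm3, the other cold-inducible RNA-binding protein, had pairs of -0.48, -0.13 and 0.20 (SE 0.11 each), was not called for unequal pairs (adjusted p = 0.905), and differed by -0.14 between the phases (SE 0.06, adjusted p = 0.421). In both, the means of ZT8 and ZT12 were the 2 highest of the 6.

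**Figure D3:**
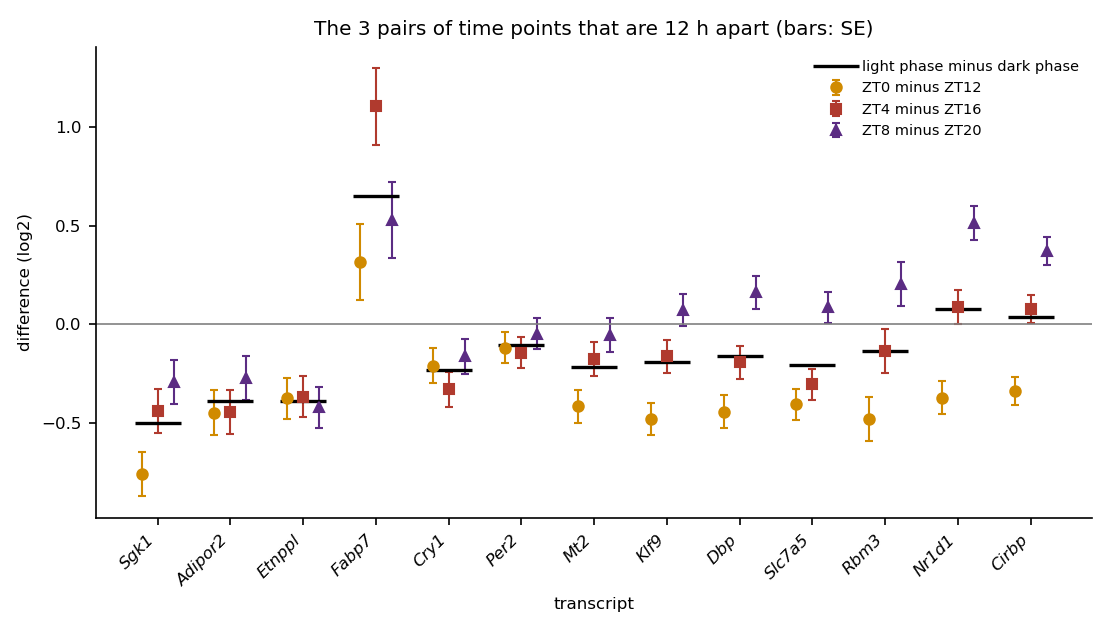
Differences in log2 units (vertical axis, bars SE) between time points 12 h apart for 13 transcripts (horizontal axis), with the light minus dark difference as a black line. The 3 pairs agree for Etnppl (-0.38, -0.37 and -0.42) and spread across 0 for Nr1d1 (-0.37, 0.09 and 0.51) and Cirbp (-0.34, 0.08 and 0.37).

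Of 20 clock genes in 3 lists, 19 were measured and none was called. Below 0 were 12 and above 0 were 7. At an unadjusted p under 0.05, 6 were lower in the light phase (31.6%, against 5.89% of all transcripts) and 1 higher (5.26%, against 5.45%). Their median difference was -0.07, against -0.003 over all transcripts, of which 51.7% were below and 48.3% above 0. The repressors made up 10 of them, 7 below 0 with a median of -0.10. Cry1, which blocks BMAL1 and CLOCK, had light phase arrays at 7.25, 7.4 and 7.62 and dark phase arrays at 7.36, 7.70 and 7.78 (difference -0.23, SE 0.05, adjusted p = 0.0945), and its 3 pairs all lay below 0 (-0.21, -0.33 and -0.16). Per3 differed by -0.13 (SE 0.04, adjusted p = 0.254), Per2 by -0.10 (SE 0.05, adjusted p = 0.394) and Nr1d2 by -0.10 (SE 0.05, adjusted p = 0.404).

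Among the clock output genes, Dbp, a transcription factor that binds D-boxes, differed by -0.16 (SE 0.05, adjusted p = 0.223). Its light phase arrays lay at 6.74, 7.06 and 7.26 and its dark phase arrays at 6.93, 7.17 and 7.42. ZT0 and ZT12 carried 44.1 and 49.3% of this, and ZT8 and ZT20 ran against it with -18.7 and -15.4%. Usp2, a deubiquitinase under clock control, differed by -0.09 (SE 0.04, adjusted p = 0.414). Of the activators, Arntl was 0.11 higher in the light phase (SE 0.04, adjusted p = 0.319), with means of 7.05, 6.94 and 6.93 in the light phase and 6.83, 6.89 and 6.86 in the dark phase.

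Transcripts that glucocorticoids induce lay together on the low side in the light phase. The list was chosen with earlier results of these data known, so its counts are a description and were not tested. Of 22 listed, 21 were measured and 20 had a difference below 0 (95.2%, against 51.7% of all transcripts). At an unadjusted p under 0.05, 12 of the 21 were lower and none higher, against 5.89 and 5.45% of all transcripts. Called lower were 2, Sgk1 and Zbtb16, against 0.0214% of all transcripts. The median difference was -0.12. It was between -0.14 and -0.11 without any single array and -0.14 after a further quantile normalization, and the smallest shift, -0.08, was without ZT0. For 11 of the 21 all 3 light means were below all 3 dark means, an order that 9.55% of all transcripts had.

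Mt2, a metallothionein that binds zinc, had light phase arrays at 9.51, 9.75 and 10.00 and dark phase arrays at 9.75, 9.95 and 10.18 (difference -0.22, SE 0.05, adjusted p = 0.121). Klf9, a Krüppel-like transcription factor, had light phase arrays at 6.92, 7.18 and 7.4 and dark phase arrays at 7.11, 7.37 and 7.66 (difference -0.19, SE 0.05, adjusted p = 0.135). The ranges overlapped in both, and neither was called. After the further normalization Mt2 differed by -0.30 and passed the threshold (adjusted p = 0.0156). The pairs of Mt2 were -0.42, -0.18 and -0.05 and those of Klf9 -0.48, -0.16 and 0.07 (SE 0.09 and 0.08). In the list as a whole the medians of the pairs fell in the same order, -0.20 for ZT0 and ZT12, -0.10 for ZT4 and ZT16 and -0.05 for ZT8 and ZT20. Without ZT4 the median of the list was -0.10, and without ZT12 it was -0.12.

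**Figure D4:**
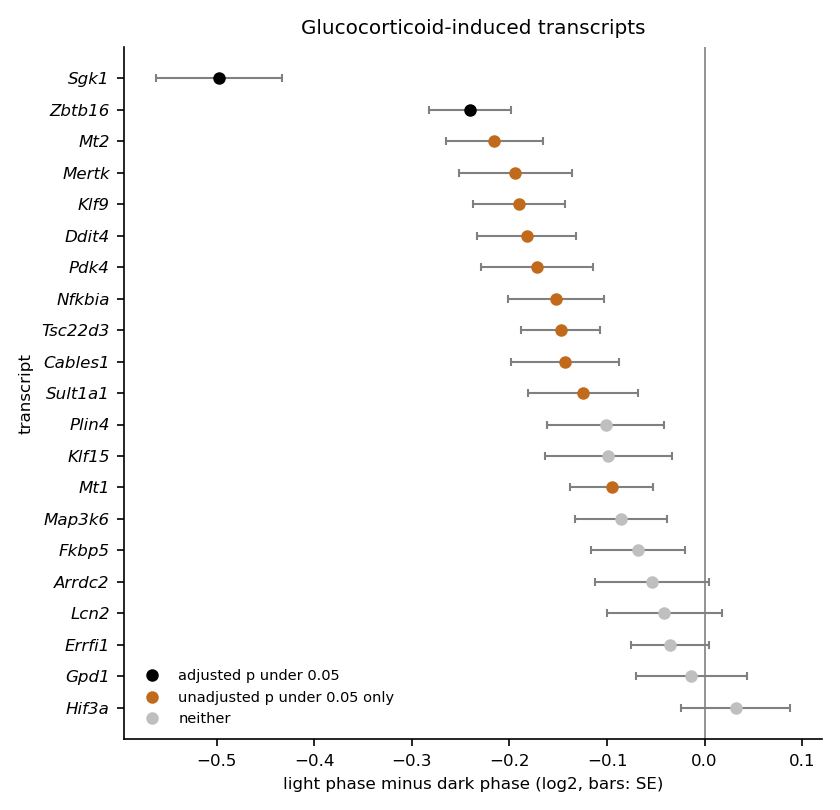
Light minus dark difference in log2 units (horizontal axis, bars SE) of the 21 glucocorticoid-induced transcripts measured (vertical axis), marked by whether they passed the adjusted or only the unadjusted threshold. All but 1 lie below 0, and Sgk1 (-0.50) is the farthest.

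The genes that make and handle dopamine showed no difference past the threshold. Th, the rate-limiting enzyme of dopamine synthesis, had light phase arrays at 7.51, 7.76 and 8.06 and dark phase arrays at 7.43, 7.77 and 8.21, and differed by -0.03 (95% confidence interval -0.19 to 0.13, limma adjusted p = 0.927). Ddc, the DOPA decarboxylase, differed by -0.02 (-0.15 to 0.12, adjusted p = 0.955), Slc6a3, the dopamine transporter, by -0.09 (-0.33 to 0.14, adjusted p = 0.805) and Slc18a2, the vesicular monoamine transporter, by 0.04 (-0.06 to 0.14, adjusted p = 0.794). The interval of Slc6a3 was the widest of the 4. Of the 19 dopamine neuron markers measured, none reached an unadjusted p under 0.05, against 5.89% of all transcripts lower and 5.45% higher. Below 0 were 14 (73.7%, against 51.7% of all transcripts), and the median of the markers was -0.02. Nr4a2, a transcription factor of dopamine neurons, had the smallest p (-0.10, SE 0.05, adjusted p = 0.457).

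Receptors of feeding and reward signals were mostly near 0. Of 30 measured, Adipor2 was called lower in the light phase, against 0.0214% of all transcripts. Below 0 were 21 (70.0%, against 51.7% of all transcripts), with a median of -0.04. At an unadjusted p under 0.05, 3 were lower (10.0%, against 5.89%) and 1 higher (3.33%, against 5.45%). Oprd1, the delta opioid receptor, differed by 0.14 (SE 0.05, adjusted p = 0.286), Drd3, a dopamine receptor, by -0.14 (SE 0.05, adjusted p = 0.293), and Mc4r, the melanocortin receptor that curbs feeding, by -0.14 (SE 0.05, adjusted p = 0.315). None of these 3 passed the test. Of 21 immediate early genes, which neurons switch on when they fire, 13 were above 0 (61.9%, against 48.3% of all transcripts) and 8 below. At an unadjusted p under 0.05, 3 were lower (14.3%, against 5.89%) and none higher (against 5.45%), and none was called. Without ZT0 replicate 4, 10 of them were above 0, and the median was -0.005 against 0.01 with it. Egr1 had the smallest p of them (-0.16, SE 0.06, adjusted p = 0.3).

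Genes of the energy and protein machinery lay on the high side in the light phase, none of them called. Of 72 nuclear genes of oxidative phosphorylation, 66 were above 0 (91.7%, against 48.3% of all transcripts) with a median of 0.10. At an unadjusted p under 0.05, 30 were higher (41.7%, against 5.45%) and 2 lower (2.78%, against 5.89%). Cox4i1, a subunit of cytochrome c oxidase, had light phase arrays at 10.34, 10.51 and 10.61 and dark phase arrays at 9.89, 10.28 and 10.50 (difference 0.21, SE 0.05, adjusted p = 0.153). Ndufa12 of complex I differed by 0.16 (adjusted p = 0.197) and Cycs, cytochrome c, by 0.23 (adjusted p = 0.199). The other Cycs probe sets differed by 0.22 and -0.04. Uqcr11 of complex III ran the other way at -0.33 (adjusted p = 0.198), but its second probe set differed by -0.03. The medians of the pairs were 0.04, 0.08 and 0.17 for ZT0 and ZT12, ZT4 and ZT16, and ZT8 and ZT20, the opposite order to the glucocorticoid-induced list.

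Of 55 cytosolic ribosomal proteins, 51 were above 0 (92.7%, against 48.3% of all transcripts) with a median of 0.08. At an unadjusted p under 0.05, 16 were higher (29.1%, against 5.45%) and none lower (against 5.89%). Rps13 differed by 0.18 (adjusted p = 0.310) and Rpl21 by 0.16 (adjusted p = 0.310), and many of these genes share near-identical pseudogenes, so their probe sets are not unique. Of 15 glycolysis genes 11 were above 0 (73.3%, against 48.3% of all transcripts), with a median of 0.07. At an unadjusted p under 0.05, 5 were higher (33.3%, against 5.45%) and 1 lower (6.67%, against 5.89%). These 5 include the uncertain Hk1 probe set (0.41), whereas the other Hk1 probe set differed by -0.03. The aldolase Aldoc differed by 0.16 (adjusted p = 0.254), Pgk1 by 0.14 (adjusted p = 0.274) and the glucose transporter Slc2a1 by -0.14 (adjusted p = 0.274). Of 18 heat shock genes 15 were above 0 (83.3%, against 48.3% of all transcripts), with a median of 0.06. At an unadjusted p under 0.05, 4 were higher (22.2%, against 5.45%) and none lower (against 5.89%). These 4 were the chaperones Hspa8 (0.15, adjusted p = 0.178), Dnaja1 (0.14, adjusted p = 0.386), Hsp90aa1 (0.10, adjusted p = 0.397) and Hspe1 (0.18, adjusted p = 0.403). Of 19 genes of cholesterol synthesis 16 were above 0 (84.2%, against 48.3% of all transcripts). At an unadjusted p under 0.05, however, 2 were higher (10.5%, against 5.45%) and 2 lower (10.5%, against 5.89%). Msmo1 (0.16) and Sqle (0.11) lay above and Lss (-0.15) and Tm7sf2 (-0.10) below, at adjusted p between 0.276 and 0.332.

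Level moved with these differences. In the brightest 10% of the transcripts 80.8% were above 0 with a median of 0.06, and 485 of 2341 were higher against 28 lower at an unadjusted p under 0.05. In the dimmest 10%, 26.5% were above 0 with a median of -0.05, and 32 were higher against 384 lower. The brightest 10% averaged 9.61, 9.60 and 9.59 at the light time points and 9.58, 9.53 and 9.51 at the dark ones. The lists of oxidative phosphorylation and ribosomal proteins had median levels of 9.03 and 9.81, inside the brightest 10%, whereas the glucocorticoid-induced list had 6.79. A further quantile normalization between arrays left the brightest 10% at a median of -0.01 with 45.5% above 0. After it the ribosomal list had a median of -0.001 with 26 of 55 above 0, glycolysis -0.02 with 7 of 15, heat shock 0.02 with 13 of 18, and oxidative phosphorylation 0.05 with 57 of 72, of which 9 were higher and 1 lower at an unadjusted p under 0.05. Of 17 synaptic vesicle genes, which neurons use to release transmitter, 15 were above 0 (88.2%, against 48.3% of all transcripts) with a median of 0.04. After the further normalization 9 were above 0 and the median was 0.0003 (-0.02 without ZT0 replicate 4). The differences of named members were smaller too, with Cox4i1 at 0.12, Cycs at 0.14, Hspa8 and Hspe1 at 0.07, Aldoc, Pgk1 and Dnaja1 at 0.04, Hsp90aa1 at 0.01 and Rpl21 at 0.06. The direction of the ribosomal and glycolysis lists thus turned with the scaling, and the synaptic vesicle median fell to near 0. The part of level in these differences was not tested further.

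Cell type markers were compared in the same way. Of 14 oligodendrocyte markers 12 were above 0 (85.7%, against 48.3% of all transcripts) with a median of 0.08 (0.06 after the further normalization). At an unadjusted p under 0.05, 3 were higher (21.4%, against 5.45%) and none lower. Among the markers above 0 were Olig2 (0.16, SE 0.04, adjusted p = 0.161), Opalin (0.21, SE 0.07, adjusted p = 0.249) and the myelin lipid enzyme Ugt8a (0.18, SE 0.06, adjusted p = 0.274, and 0.11 after the further normalization). Opalin was carried by ZT20 at 51.3%, with ZT0 against it at -11.3%. Of 13 microglia markers 10 were above 0 (76.9%, against 48.3% of all transcripts) with a median of 0.06 (0.03 after the further normalization). At an unadjusted p under 0.05, 2 were higher (15.4%, against 5.45%) and none lower (against 5.89%). C1qa differed by 0.11 (adjusted p = 0.354) and Cx3cr1 by 0.12 (adjusted p = 0.404). None of these passed the test. Of 15 astrocyte markers, the cell type of Etnppl and Fabp7, none reached an unadjusted p under 0.05. Above 0 were 10 (66.7%, against 48.3% of all transcripts), and the median of the astrocyte markers was 0.02. After the further normalization it was -0.04, with 7 above 0 and 3 lower at an unadjusted p under 0.05, so its direction turned with the scaling. Aldh1l1, a defining astrocyte enzyme, differed by -0.08 (SE 0.04, adjusted p = 0.483). Summed on the linear scale, the astrocyte markers lay between 8083 and 8902 units per array in the light phase and between 7570 and 8962 units in the dark phase. Etnppl and Fabp7 differed in opposite directions, and the part of astrocyte number in either was not tested.

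**Figure D5:**
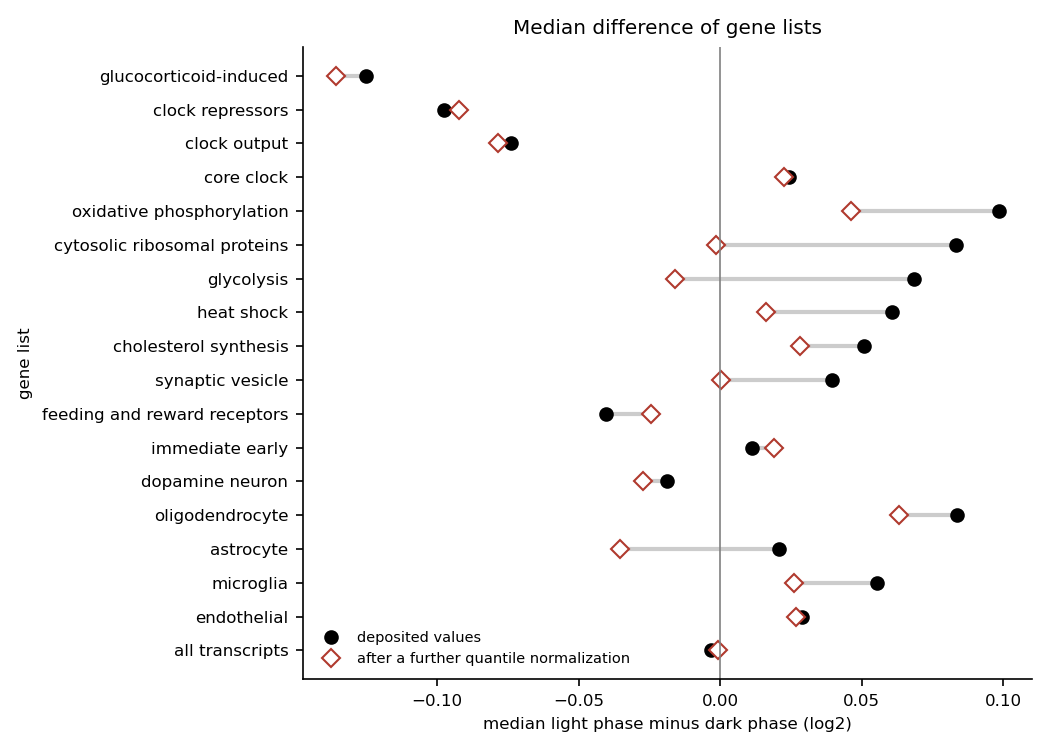
Median light minus dark difference in log2 units (horizontal axis) of 17 gene lists and of all transcripts (vertical axis), in the deposited values (filled) and after a further quantile normalization (open). The glucocorticoid-induced list stays near -0.12 to -0.14, while ribosomal proteins move from 0.08 to -0.001 and glycolysis from 0.07 to -0.02.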

How the data were processed

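Total RNA of VTA punches, 1 mouse per array, was hybridised to Affymetrix Mouse Gene 1.0 ST arrays. The authors deposited log2 values made with RMA (background correction, quantile normalization and median polish) in R 2.13.1, and the genome build of the annotation is not given in the sources used here. Values ranged from 2.27 to 14.1, with no detection call, so the number of arrays limits the precision. Gene names come from the platform annotation (21789 probe sets with 1 gene, 1621 with several, 12146 with none), updated through RefSeq GRCm38.p6 for 21698. Fits used limma 3.58.1 in R 4.3.3 and plots matplotlib 3.10.9. The tests were also tried on simulated data with independent normal noise. Those data held no outlying array, no shift with level and no correlation between arrays. Named genes are the called ones, the 12 with the smallest p per direction above the median level (6.76), those with unequal pairs, the 4 smallest p of each list described and 16 listed genes. The members, the 31 lists and the rule were chosen with earlier results of these data known. Each listed gene was represented by its brightest probe set with 1 gene. The labels do not say that replicate numbers pair the mice, and the main fit did not pair them. Alternatives were 2 groups of 12, time point as a random block, a replicate block, other filters, scalings and array weights, other variance steps, a plain t-test of equal variances, and leaving out each time point or array. A further normalization without ZT0 replicate 4, and the parts without it, were added after seeing the data.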

Additional observations from a re-analysis of the deposited data

Results flagged for a closer look

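In 2 transcripts the light minus dark difference itself depended on which pair of times was compared, by limma's F-test of unequal pairs: Nr1d1 (adjusted p = 0.0086) and Cirbp (adjusted p = 0.0122).

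Single arrays stood far from the other 3 of their time point, by the gap to the nearest array over the range of the 4 (Dixon's ratio), in 20 of 426 groups checked (4.69%), and chance flags about 1 in 20. In the light phase these were, each with its log2 value and the nearest of the other arrays, Hk1 at ZT0 in replicate 2 (10.41, nearest 10.85), Sgk1 at ZT8 in replicate 1 (6.73, nearest 7.02), Id2 at ZT8 in replicate 2 (8.20, nearest 8.05), Ugt8a at ZT8 in replicate 2 (9.76, nearest 9.54), Zfyve21 at ZT8 in replicate 3 (6.86, nearest 6.77), Per3 at ZT8 in replicate 3 (6.73, nearest 6.63) and Rbm3 at ZT8 in replicate 3 (9.17, nearest 9.66). Replicate 4 at ZT8 was set apart for Hk1 (10.87, nearest 10.33), Hspa8 (11.81, nearest 11.70) and Mc4r (7.01, nearest 7.21). In the dark phase they were Ddc at ZT12 in replicate 1 (8.68, nearest 8.38), Sgk1 at ZT12 in replicate 3 (7.35, nearest 7.60), Cycs (9.77, nearest 10.10) and Pgk1 (10.47, nearest 10.67) at ZT12 in replicate 4, and Egr1 at ZT20 in replicate 1 (6.87, nearest 7.15). Replicate 4 at ZT16 was set apart for Hk1 (9.85, nearest 10.26), Lss (7.21, nearest 6.88) and Dnaja1 (10.18, nearest 10.44), and replicate 4 at ZT20 for Itpk1 (7.43, nearest 7.27) and the brightest Rpl5 probe set (9.57, nearest 9.88).

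Probe sets without a gene were left out of the comparison. In a limma fit over all probe sets, 2012 of these 12146 (16.6%) had an unadjusted p under 0.05, 827 higher and 1185 lower in the light phase, and 1 was called. Among the transcripts with a gene 11.3% had such a p in the main fit, 5.45% higher and 5.89% lower. Probe sets without a gene thus passed the unadjusted threshold more often than those with one, and the cause was not tested.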

How the results depend on the processing

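The 6 calls between the phases became 182 with the time point as a random block (64 higher, 118 lower), where the estimated correlation within time points was -0.06, 86 with array weights (20 higher, 66 lower), 12 with the replicate block (3 higher, 9 lower), 10 after a further quantile normalization (3 higher, 7 lower), 13 after that without ZT0 replicate 4, and 3 over all probe sets (Fabp7, Adipor2, Plekhf1 and Zbtb16 lost). It was 9 above the median level, 6 with 2 groups of 12 (Zbtb16 lost), 5 with centred medians (Plekhf1 lost), 5 with robust and trended variances (Fabp7 lost) and 4 without variance moderation (Fabp7, Adipor2 and Plekhf1 lost). There were 0 without ZT4, 0 without ZT12 and 2 without ZT20, and between 3 and 40 without 1 array. The labels give the replicate number no meaning, so whether it marks a shared batch is not known. Deviations of same-numbered arrays correlated between -0.302 and 0.582, the highest within replicate 4. Of 24 arrays, 6 correlated best with an array of their own number. The gap between the means of the brightest and the dimmest 10% of transcripts was smallest in replicate 4 of ZT20 (4.88), ZT16 (4.99) and ZT12 (4.99). A plain t-test of equal variances gave 2691 transcripts unadjusted and 4 after Benjamini-Hochberg adjustment (Fabp7, Adipor2, Plekhf1 and Zbtb16 lost). Calls within the phases, 0 in the fit reported, were 2 above the median level, 1 with centred medians, 1 with array weights, 2 with robust and trended variances, and between 0 and 1 without 1 array. Unequal pairs gave between 1 and 3 calls without 1 array. The sign of the phase difference turned for Nr1d1 without ZT8 (-0.0496) or ZT20 (-0.0166), for Cirbp without ZT8 (-0.0428) or ZT20 (-0.0501), for Th without ZT20 (0.0159) and for Ddc without ZT0 (0.0573) or ZT20 (0.031). Without 1 array Th ranged between -0.0692 and 0.00911, above 0 without ZT12 replicate 1 or ZT20 replicate 2, and Ddc between -0.0437 and 0.0201, above 0 without ZT0 replicate 4, ZT12 replicate 1, ZT16 replicate 3 or ZT20 replicate 2. The cause of these changes was not tested. Beside the lists in the report, medians turned after the further normalization for ER chaperones (-0.004, against 0.02 in the deposited values), GABA and glutamate neuron markers (-0.03, against 0.02) and choroid plexus and ependyma markers (0.0004, against -0.006), after it without ZT0 replicate 4 for fatty acid genes (-0.009, against 0.03), and without ZT0 replicate 4 for insulin and FOXO-responsive genes (0.008, against -0.02) and amino acid transport (0.003, against -0.008).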
